A study of Mus musculus with 8 samples.

Results

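Enterochromaffin cells are the serotonin-making endocrine cells of the gut epithelium. Here they are 219 wells of 5 plates sorted from a mouse intestinal organoid line with a reporter for Tac1. A well was included when it held at least 2000 transcripts outside spike-ins and mitochondrial genes, Kcnq1ot1 made up less than 5% of these, and Tac1 and Tph1 together gave at least 5. These 219 were drawn from 288 wells that passed the first 2 limits, 1920 wells on the 5 plates and 3072 wells in the whole series. The other 69 of the 288 wells are called other wells below.

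The organoids were of the C57BL/6 strain and the labels give every plate the genotype Tac1 reporter. The titles of the 2 plates that held every exposure name a Cre line, and Cre recombination marks a cell and its descendants permanently. Each well of a plate took 1 live reporter-positive cell. Untreated organoids, organoids given BMP4 for 24 h and organoids given BMP4 for 4 days lay side by side on the plates Tac1-Cre 1 and Tac1-Cre 2. Plate Tac1 24h held the 24 h exposure alone, and plates Tac1 d4 1 and Tac1 d4 2 held the 4 day exposure alone. Untreated cells thus come from 2 plates, 24 h cells from 3 and 4 day cells from 4. No BMP4 dose, promoter construct, animal age or clone number is given in the sources used here. Whether each plate was made from its own culture is not stated, so the differences behind every p-value below could be technical. The main gene tests take wells summed by plate and exposure as units, so the same plate can give several. Their p-values are therefore not a measure of the spread among plates alone. On the shared plates each exposure also had its own block of columns, and there BMP4 and plate position cannot be told apart.

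Serotonin is made from tryptophan in 2 steps. Tph1 encodes the rate-limiting hydroxylase of the gut and Ddc the decarboxylase, while Gch1 and Qdpr supply and recycle the tetrahydrobiopterin cofactor of Tph1. Vesicular monoamine transporters, encoded by Slc18a1 and Slc18a2, load serotonin into granules, whose matrix is formed by the chromogranins Chga and Chgb. Tac1 encodes the precursor of substance P and neurokinin A, which many enterochromaffin cells co-release with serotonin. BMP4 is a secreted ligand that acts through Smad transcription factors and induces the Id genes. BMP signalling is known to be stronger toward the villus than in the crypt.

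The sequences upstream of the genes the results turn on are shown here. In enterochromaffin cells Chgb was lower at 4 days of BMP4 than untreated, and Sct and Id2 were higher. Tac1 was lower and Tph1 higher, but wells were included on these 2 genes, so their levels describe the selection. The opposite course of Tac1 and Tph1 is therefore not read as a response to BMP4. Each sequence is the 250 bases before an annotated transcription start (RefSeq, GRCm38.p6), and Tph1 has 2 such starts. Capitals mark TGACG on either strand, the half-site of a cyclic AMP response element, and GGCGCC, a palindrome of the kind that BMP-activated Smads can bind. No motif searched overlaps the other, though the 2 TGACG matches of Chgb overlap in 1 palindrome. TGACG lies in 17.8% and GGCGCC in 9.6% of 32851 upstream windows of this length in the RefSeq table. The windows are chr6:7554811-7555060 on the plus strand for Tac1, chr7:46672538-46672787 and chr7:46667378-46667627 on the minus strand for Tph1, chr2:132781392-132781641 on the plus strand for Chgb, chr7:141279134-141279383 on the minus strand for Sct and chr12:25096093-25096342 on the minus strand for Id2.
Tac1: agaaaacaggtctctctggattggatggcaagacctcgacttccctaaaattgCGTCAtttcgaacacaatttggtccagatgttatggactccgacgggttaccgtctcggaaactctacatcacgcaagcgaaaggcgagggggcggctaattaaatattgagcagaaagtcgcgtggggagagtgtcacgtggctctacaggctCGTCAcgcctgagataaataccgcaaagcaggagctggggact
Tph1 start 1: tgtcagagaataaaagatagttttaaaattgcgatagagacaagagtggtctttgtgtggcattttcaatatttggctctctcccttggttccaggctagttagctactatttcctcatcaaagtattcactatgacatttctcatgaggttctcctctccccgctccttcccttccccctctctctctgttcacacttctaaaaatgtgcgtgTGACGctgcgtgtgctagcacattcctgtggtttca
Tph1 start 2: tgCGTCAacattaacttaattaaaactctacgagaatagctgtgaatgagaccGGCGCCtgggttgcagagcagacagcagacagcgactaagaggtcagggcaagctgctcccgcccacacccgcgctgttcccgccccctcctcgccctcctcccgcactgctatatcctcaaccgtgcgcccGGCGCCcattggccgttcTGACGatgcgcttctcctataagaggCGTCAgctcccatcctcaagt
Chgb: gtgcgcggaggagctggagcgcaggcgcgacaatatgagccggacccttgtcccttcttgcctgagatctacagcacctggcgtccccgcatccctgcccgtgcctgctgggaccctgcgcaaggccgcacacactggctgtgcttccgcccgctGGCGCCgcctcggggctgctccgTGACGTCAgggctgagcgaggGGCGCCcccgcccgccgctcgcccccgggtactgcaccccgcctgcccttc
Sct: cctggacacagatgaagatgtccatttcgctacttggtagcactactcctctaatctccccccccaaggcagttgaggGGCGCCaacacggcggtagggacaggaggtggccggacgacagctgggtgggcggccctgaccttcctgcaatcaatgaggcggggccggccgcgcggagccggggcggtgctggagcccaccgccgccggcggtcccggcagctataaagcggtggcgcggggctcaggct
Id2: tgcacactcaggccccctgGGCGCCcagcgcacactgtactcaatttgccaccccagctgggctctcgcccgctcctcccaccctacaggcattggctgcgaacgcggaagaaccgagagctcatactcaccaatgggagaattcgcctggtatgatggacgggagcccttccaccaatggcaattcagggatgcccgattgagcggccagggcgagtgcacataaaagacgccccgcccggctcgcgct
Tac1 held 2 TGACG matches and no GGCGCC. The second Tph1 window held 3 and 2 matches, the Chgb window 2 and 2, and the first Tph1 window 1 TGACG alone. Sct and Id2 each held 1 GGCGCC and no TGACG. A match is a description of letters in these windows.

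Members were selected on Tac1 and Tph1, so the levels of these 2 genes describe the selection and are given without a test. Their sum per member ranged from 5 to 199.76 transcripts, with a median of 15.02 and quartiles of 8.01 and 30.06. Both genes were present in 67 of 68 untreated members, 78 of 82 members at 24 h and 33 of 69 members at 4 days. At 4 days the other 36 members held Tph1 without Tac1, and none held Tac1 without Tph1. The median share of Tac1 in the sum was 62.5% in untreated members, 44.5% at 24 h and 0% at 4 days. Membership through Tac1 alone, at 5 or more transcripts, would have kept 59 untreated, 49 24 h and 5 4 day members. Through Tph1 alone it would have kept 44, 60 and 64.

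**Figure D1:**
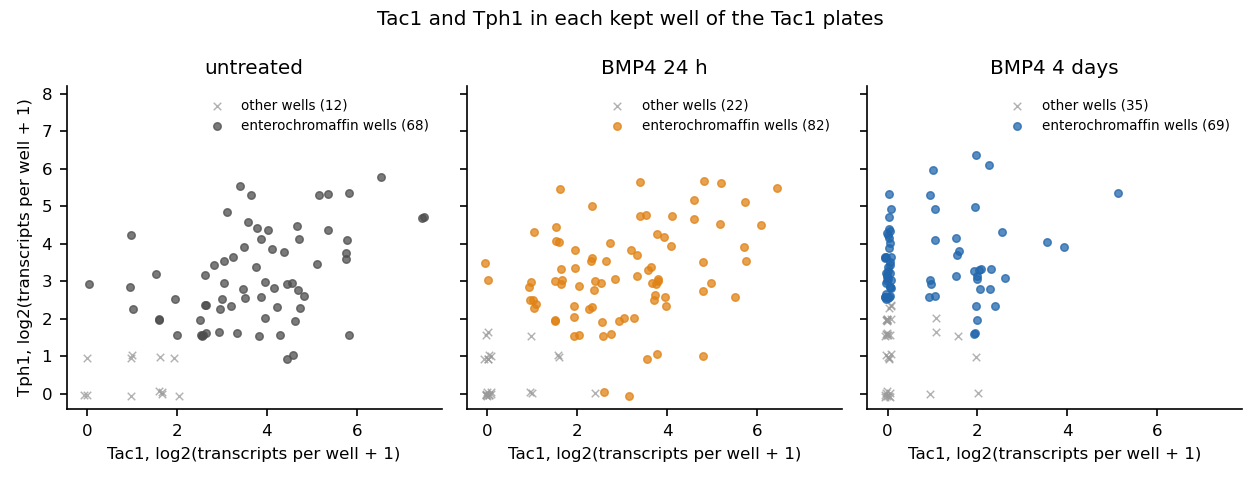
Transcripts of Tac1 (horizontal) and Tph1 (vertical) in each kept well, as log2(transcripts + 1), with a small random offset so that equal values can be seen. Circles are the 68, 82 and 69 enterochromaffin wells and crosses the other wells; at 4 days most circles stand at Tac1 zero.

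Summed over the members of one plate and condition and scaled to CPM, a gene's level relative to all transcripts of the sum, Tac1 stood at 2948 and 3424 untreated (Tac1-Cre 1 and 2). At 24 h it stood at 2237 and 1554 on the same plates and at 2496 on Tac1 24h. At 4 days it stood at 393 and 691 on the shared plates and at 284 and 334 on Tac1 d4 1 and 2, below every other sum. Tph1 took the opposite course, from 1740 and 968 untreated through 2218, 2199 and 1800 at 24 h to 2686, 2715, 3079 and 3604 at 4 days.

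The threshold on the sum was narrow for some wells. In 29 members the sum was 5 to under 7, and in 22 other wells it was 3 to under 5. Pooled over those wells, Chga stood at 22194 CPM just inside and 10727 just outside, Trpa1 at 712 and 256, and Lmx1a, an enterochromaffin transcription factor, at 674 and 226. Sst, the somatostatin gene of D cells, stood at 3772 inside and 157954 outside, so part of the wells just outside were rich in Sst transcripts. The hormone gene Gip went the other way, at 22736 CPM inside and 10265 outside.

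Depth was moderate and uneven. Members held 2003 to 21581 transcripts, with a median of 4453, and other wells had a median of 3077. By exposure the members' median depth was 5917, 4534 and 3746 transcripts (untreated, 24 h, 4 days). The 9 sums of members held 7 to 55 wells and 34110 to 394845 transcripts. All 5 plates use the same 384 well barcodes by design. Tac1 24h and Tac1 d4 2 share a sequencing run in their names, where 8 barcodes passed the depth limit on both plates and the depths of equal barcodes had a Spearman correlation of 0.188. Intervals for shares and floors below cover counting error only.

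Markers that the rule did not use were present in members. Thinned to 2000 transcripts a well, Chga was found in 219 of 219 members, at a median of 47 transcripts. Its presence was not particular to members. Before thinning it was also found in 34 of 34 other wells without a leading hormone (defined below). In wells under 500 transcripts Chga stood at 33797 CPM on Tac1-Cre 1, above members there at 25228. On the other plates such wells held 14865 to 21545 CPM, below members of the same plate. Chgb, the second chromogranin, had a median of 114 in untreated members, 99.5 at 24 h and 42 at 4 days. Trpa1, an irritant-sensing cation channel of enterochromaffin cells, was found in 151 of 219 members (68.95%, Wilson 95% interval 62.5 to 74.7) against 19 of 69 other wells (27.5%, 18.4 to 39.05). Before thinning these shares were 80.4% and 30.4%. They pool the exposures, and 69 of 219 members but 35 of 69 other wells came from 4 days, when Trpa1 was lower in members (below). The part of this mix in the gap was not tested. Slc6a4, the serotonin transporter, gave 1 transcript over the 9 sums of members. Piezo2, a mechanically gated channel, gave 0 of 1277011, which allows up to 2.35 CPM.

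Summed markers of other epithelial cells were lower for the tuft, Paneth, proliferation and stem cell lists than for the goblet and enterocyte lists. The summed level of 8 tuft cell markers in members reached 7.6 CPM untreated, 137 at 24 h and 8.2 at 4 days. Of these markers 6, 1 and 7 were at 0 throughout, with Trpm5, Pou2f3 and Rgs13 at 0 untreated and at 4 days. Paneth cell markers, 6 in all, summed to at most 213 CPM. Among 10 goblet cell markers, whose sums ran from 1436.5 to 4736 CPM, Tff3 made up most and Clca1 was at 0 in every sum. The 14 enterocyte genes summed to 884 to 927 CPM untreated, 880 to 1800 at 24 h and 2072 to 3118 at 4 days, with Alpi at 0 in all. Their part in the 4 day results was not tested. Proliferation genes summed to at most 355 CPM over 9 genes and stem cell genes to at most 410 over 6.

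Members and other wells were compared first, to see what else the Tac1 reporter labels. Chromogranins, the serotonin enzyme Ddc and the ion channels Trpa1 and Scn3a were higher in members, and genes of hormone cells of other kinds were lower. The comparison used 6 pairs of sums from 4 plates, each pair from one plate and exposure (Tac1-Cre 2 had too few other wells). Beyond Tac1 and Tph1, 31 of 1082 genes passed at an adjusted p under 0.05 (2.87%; edgeR, quasi-likelihood), with 20 higher in members and 11 lower. At an unadjusted p under 0.05 there were 162.

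Chgb stood at 64810, 56936 and 24721 CPM in members of Tac1-Cre 1 (untreated, 24 h, 4 days), at 53896 on Tac1 24h and at 22048 and 22909 on the 4 day plates. In other wells the same sums gave 10449, 16923, 11622, 16796, 13272 and 9371, lower in 6 of 6 pairs, with members ahead by 1.38 ± 0.34 on the log2 scale (SE, 6 pairs, adjusted p = 0.025). Chga was ahead by 1.50 ± 0.34 (adjusted p = 0.011), from 21852 to 31260 CPM in members and from 4001 to 14403 in other wells. The 2 ranges do not overlap. Trpa1 was ahead by 2.26 ± 0.51 (adjusted p = 0.035) and Ddc by 1.00 ± 0.22 (adjusted p = 0.011), both in 6 of 6 pairs.

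The serotonin list held 4 tested genes beside Tph1, of which Ddc alone passed. Slc18a1, the transporter of the 2 that is typical of endocrine cells, stood higher in 6 of 6 pairs, by 1.19 ± 0.36, and did not pass (adjusted p = 0.076). The cofactor genes Qdpr and Gch1 differed by 1.01 ± 0.34 and 0.34 ± 0.32 and did not pass either. Among 5 tested sensory genes Trpa1 and the sodium channel gene Scn3a (1.49 ± 0.30, adjusted p = 0.0048) were higher, and the calcium channel genes Cacna1a and Cacna1h and the potassium channel gene Kcnb2 did not pass. Ucn3, encoding urocortin 3, stood higher in 6 of 6 pairs by 1.31 ± 0.36 and missed the threshold (adjusted p = 0.057), as did Lmx1a at 1.86 ± 0.50 (adjusted p = 0.061).

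Reg4, which encodes a secreted lectin found in enterochromaffin cells, was among the genes most abundant in members, at 23319 to 45895 CPM against 2158 to 16333 in other wells (2.28 ± 0.50, adjusted p = 0.011). Further genes higher in members were Tpbg, which encodes trophoblast glycoprotein (1.84 ± 0.31), Amigo2, an adhesion protein gene (1.88 ± 0.32), Gstt1, a glutathione transferase gene (1.82 ± 0.33), Rab3c, a vesicle GTPase gene (1.82 ± 0.43), Dusp1, a MAP kinase phosphatase gene (1.93 ± 0.41), and D8Ertd82e (2.45 ± 0.66). Their adjusted p-values ran from 0.0011 to 0.046. Much of this rests on Tac1-Cre 1, which gave 3 of the 6 pairs. Without it the call ended for Chga (adjusted p = 0.058), Chgb (0.29), Trpa1 (0.073), Reg4 (0.073), Ddc (0.23), Tpbg (0.37), Amigo2 (0.20) and Gstt1 (0.55), each still higher in members, and 12 genes were called in all; Dusp1, Rab3c and D8Ertd82e were then not tested. Without Tac1 24h, Chga (adjusted p = 0.063), Chgb (0.092) and Rab3c (0.09) also missed the threshold, as did Chgb (0.085) and D8Ertd82e (0.085) without Tac1 d4 2 and D8Ertd82e (0.13) without Tac1 d4 1. With 1 sum per plate and plate as the block, Chga (adjusted p = 0.057), Chgb (0.13), Reg4 (0.082), Ddc (0.054), Dusp1 (0.087) and D8Ertd82e (0.066) missed it. The differences were also smaller when a member needed a sum of 10 (Chga 0.62, Chgb 0.78, Reg4 0.92) or wells were first thinned to 2000 transcripts (0.73, 0.87 and 0.60), and none of these 3 passed then. After thinning 4 genes passed, all lower in members, so no gene higher in members kept its call. Trpa1 (1.19, adjusted p = 0.051), Gstt1 (1.03, 0.051), Scn3a (0.88, 0.17) and Ddc (0.45, 0.37) were among those that missed it. At a sum of 10, Scn3a (0.25, 0.70) and Ddc (0.69, 0.13) missed it too, whereas Trpa1 (1.05, 0.0105) and Gstt1 (0.91, 0.033) passed. With at least 3000 transcripts a well, Chga (adjusted p = 0.059), Chgb (0.10), Reg4 (0.13), Dusp1 (0.19), Gstt1 (0.11) and Tpbg (0.087) missed the threshold, and without the limit on Kcnq1ot1 so did Chga (0.13), Chgb (0.23), Reg4 (0.092) and Dusp1 (0.23).

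Genes lower in members included several of other endocrine lineages. Isl1, a transcription factor gene of several peptide hormone lineages, stood at 0 to 105 CPM in members and 162 to 1357 in other wells (−5.24 ± 0.46, adjusted p = 2.2e-07). Rbp4, which encodes a retinol carrier, was at 0 to 33 CPM against 157 to 1093 (−5.25 ± 0.57, adjusted p = 3.5e-06). Fabp5, a fatty acid binding protein gene, differed by −4.19 ± 0.37, the granule protein gene Scg2 by −4.11 ± 0.39 and the calcium-binding protein gene Scgn by −3.68 ± 0.48. The hormone genes Cck (−4.22 ± 0.58, adjusted p = 0.0017) and Gip (−5.16 ± 1.08, adjusted p = 0.025) were also lower. Fabp5, Scg2 and Cck passed with each of the 4 plates left out in turn. Isl1 and Rbp4 passed without either 4 day plate and fell below the filter on low counts without Tac1-Cre 1 or Tac1 24h, and Scgn passed in all but the last, where it was not tested. Gip did not without Tac1 d4 1 (adjusted p = 0.12) or Tac1 d4 2 (0.085).

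The granule list split: of 19 tested genes, 4 were higher (Chga, Chgb, Pcsk1 and Rab3c) and 3 lower (Scg2, Scgn and Cpe), with a median difference of −0.22 beside −0.01 over all genes. Sst did not pass (−3.56 ± 1.01, adjusted p = 0.092), with other wells at 432 to 181624 CPM. Members stood lower in 5 of 6 pairs and higher on Tac1-Cre 1 at 4 days. Sct, the secretin gene, differed by 0.07 ± 0.41.

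**Figure D2:**
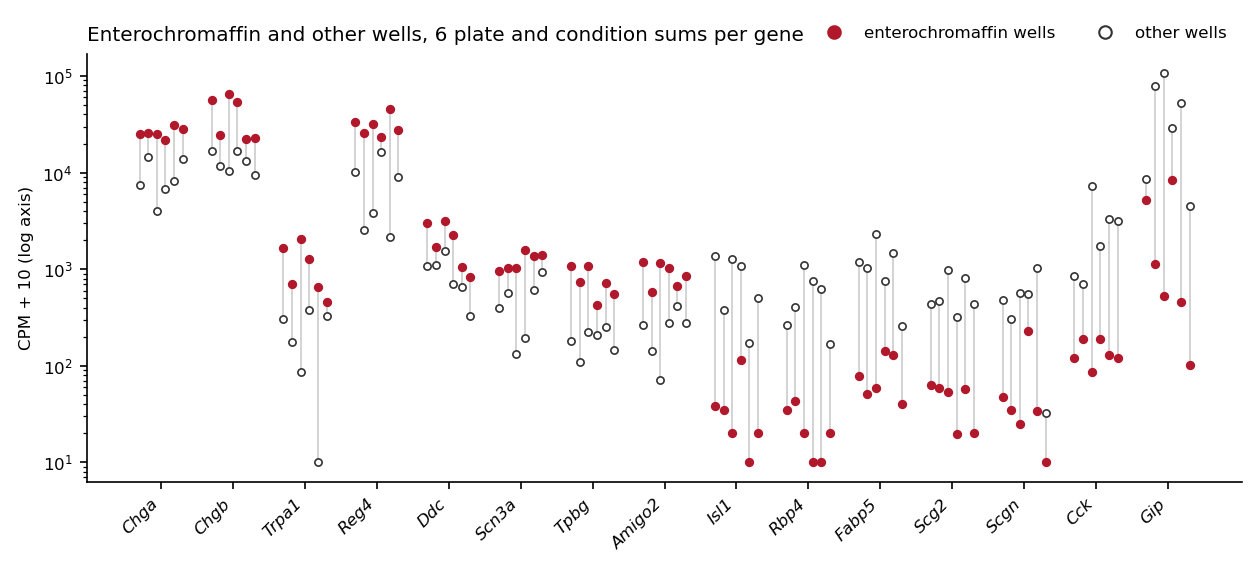
Levels of 15 genes in enterochromaffin wells (filled) and other wells (open) as CPM + 10 on a log axis, with 6 pairs of sums per gene from left to right in the order Tac1-Cre 1 at 24 h, 4 days and untreated, Tac1 24h, Tac1 d4 1 and Tac1 d4 2. Chga to Amigo2 stand higher in the enterochromaffin sum of every pair and Isl1 to Gip lower.

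By well, other wells were a mixture. Counting a hormone gene as leading when it was the highest of the hormone list and at least 1% of a well's transcripts (a limit set after the values were seen), 15 of 69 other wells were led by Gip, 14 by Sst, 3 by Sct, 2 by Cck and 1 by Nts, the neurotensin gene. The median lead was 18.8% of transcripts for Gip and 9.73% for Sst. The remaining 34 had no leading hormone, and 23 of them came from the 4 day exposure. Pooled, these 34 wells held Chga at 17947 CPM, Reg4 at 18556, Trpa1 at 526 and Lmx1a at 457. They also held Gstm1, a glutathione transferase gene, at 2292 CPM (found in 10 wells) and Cyp3a11, a cytochrome P450 gene, at 1183 (5 wells), against 63.8 and 29.2 in members without a leading hormone. The tuft cell genes Trpm5, Avil and Dclk1 stood at 209, 139 and 109 CPM, each found in 1 well. Among members 185 of 219 had no leading hormone, 24 were led by Sst at a median of 1.29%, 8 by Sct and 2 by Gip. The 2 Gip-led members, both of the 24 h exposure, held 18.04% and 20.18% Gip and, pooled, Isl1 at 1170 CPM, Scgn at 1421 and Chga at 4875, values closer to Gip-led other wells (663, 1216 and 1613) than to members without a leading hormone (8.9, 14.2 and 26519).

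Low counts of Sst and Gip in members have to be read beside wells that hold almost no cell RNA. After thinning, at least 1 Sst transcript was found in 82.4%, 93.9% and 75.4% of members (untreated, 24 h, 4 days). In wells under 500 transcripts Sst stood at 30680 CPM on Tac1-Cre 1, 609 on Tac1-Cre 2, 84665 on Tac1 24h, 1079 on Tac1 d4 1 and 7647 on Tac1 d4 2. Members of the same plates gave 4285, 25.8, 9834, 237 and 1418, lower on 5 of 5 plates. The source of Sst in members was not tested, and on Tac1-Cre 1 at 4 days they stood at 8131 CPM, above the other wells there at 3543. For Gip, members were lower on 4 plates and higher on Tac1 24h, at 8394 against 5421. The Tac1 24h sum includes a Gip-led member of 4686 transcripts, at least 18.04% of them Gip. The level without that well was not computed.

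BMP4 exposure was next. The share of kept wells that were members was 83.3% and 92.9% untreated (Tac1-Cre 1 and 2), 88.2%, 77.8% and 68.2% at 24 h (the last on Tac1 24h), and 75%, 88.9%, 48% and 66.7% at 4 days. The means were 88.1% ± 6.7 (SD, n = 2 plates) and 69.6% ± 17.1 (SD, n = 4). They differed by −18.5 points, and the untreated and 4 day ranges overlap. This share is set by the 2 genes of the rule and is given without a test.

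Comparing 4 days of BMP4 with none among members asks how enterochromaffin cells respond to prolonged BMP signalling. The BMP targets Id1 and Id2 and the secretin gene Sct rose, Tac1 stood lower and Tph1 higher (both used by the rule), and the rest of the serotonin and granule programme moved unevenly, with lower Ddc, Gch1, Qdpr, Slc18a2 and Chgb, higher Slc18a1 and level Chga values. Beyond Tac1 and Tph1, 218 of 3008 genes passed (7.25%), 100 higher and 118 lower, with 2 untreated against 4 4 day sums.

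Of 7 tested serotonin genes beside Tph1, 4 fell and 1 rose, with a median of −1.20 beside 0.03 over all genes. Ddc stood at 3168 and 2550 CPM untreated and at 1670, 1412, 1042 and 810 at 4 days (−1.20 ± 0.32, adjusted p = 0.015). Gch1 stood at 765 and 728 untreated and at 254, 408, 260 and 172 (−1.47 ± 0.37, adjusted p = 0.008). All 4 day sums lay below both untreated sums for each gene, and the 24 h sums lay between 2248 and 2977 for Ddc and between 438 and 733 for Gch1. Qdpr fell by 1.48 ± 0.33 on the log2 scale (adjusted p = 0.0032), from 869 and 1426 CPM to 361 to 466.

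The 2 vesicular transporters moved in opposite directions. Slc18a2 stood at 203 and 291 CPM untreated and at 24.6, 47.1, 23.7 and 50.6 at 4 days (−2.68 ± 0.61, adjusted p = 0.0037). Slc18a1 stood at 352 and 229 untreated and at 434, 1161, 710 and 749 (1.35 ± 0.42, adjusted p = 0.044). At 24 h they stood at 278, 117 and 76.2 (Slc18a2) and at 397, 234 and 143 (Slc18a1). In thinned wells Slc18a2 was found in 23 of 68 untreated members (33.8%, Wilson 95% interval 23.7 to 45.7) and 2 of 69 at 4 days (2.9%, 0.8 to 9.97), and Slc18a1 in 28 of 68 and 43 of 69 (41.2% and 62.3%). Before thinning the shares were 63.2% and 8.7% for Slc18a2 and 67.6% and 76.8% for Slc18a1. The tested cofactor genes Pcbd1 and Spr did not pass (0.01 ± 0.58 and 0.49 ± 1.12).

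Chgb fell by 1.31 ± 0.30 (adjusted p = 0.0032), from 64810 and 59326 CPM to between 22048 and 30244. Chga, at 25091 and 26536 untreated and 25827 to 34858 at 4 days, differed by 0.22 ± 0.31 (adjusted p = 0.80). Trpa1 fell by 1.33 ± 0.36 (adjusted p = 0.015), from 2024 and 2112 CPM to 696, 1507, 639 and 445. It was found in 61 of 68 untreated and 26 of 69 4 day members after thinning (89.7% and 37.7%, and 97.1% and 53.6% before). Of the other enterochromaffin peptides, Ucn3 ranged from 385 to 2448 CPM at 4 days around 588 and 1061 untreated, and Cartpt from 47.1 to 829 around 86.1 and 31.2; neither passed (adjusted p = 0.88 and 0.34). Among 5 tested sensory genes the potassium channel gene Kcnb2 rose, from 83.6 and 10.4 CPM to 273 to 392 (2.42 ± 0.74, adjusted p = 0.0496). That call ended without Tac1-Cre 2 (0.32), Tac1 d4 1 (0.09) or Tac1 d4 2 (0.12). Scn3a, Cacna1a and Cacna1h did not pass.

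Several of these calls rest on few sums. With plate as a block, the calls ended for Ddc (−0.86, adjusted p = 0.085), Slc18a1 (1.34, adjusted p = 0.065) and Trpa1 (−0.95, adjusted p = 0.098), and those for Gch1, Qdpr, Slc18a2 and Chgb did not. Without Tac1-Cre 1 the adjusted p was 0.17 for Ddc, 0.21 for Gch1, 0.20 for Slc18a1, 0.12 for Slc18a2 and 0.15 for Trpa1. Without Tac1-Cre 2 it was 0.051 for Ddc, 0.49 for Qdpr, 0.091 for Slc18a2 and 1.00 for Slc18a1 (0.74). Without Tac1 d4 1 it was 0.057 for Ddc, 0.055 for Slc18a1 and 0.061 for Trpa1, and without Tac1 d4 2 it was 0.072, 0.059 and 0.069. The direction of each was the same throughout, and Chgb passed in each.

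**Figure D3:**
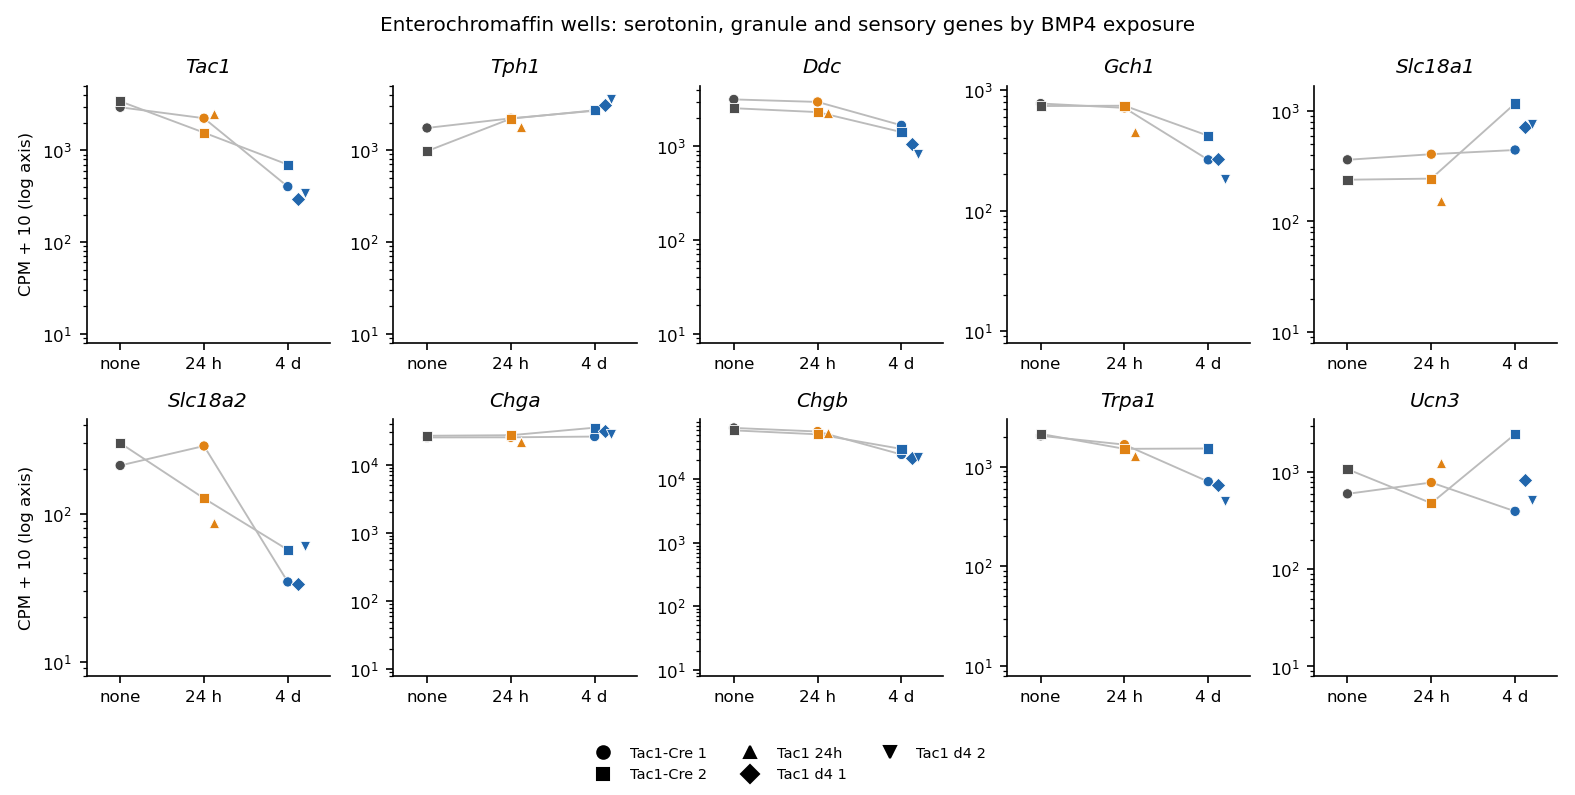
Levels in enterochromaffin wells as CPM + 10 on log axes against BMP4 exposure, 1 point per plate and condition sum; lines join sums of one plate and marker shapes give the plate. Tac1 and Slc18a2 stand lowest in the 4 day sums, Tph1 highest, and Chga stays within 21852 to 34858 CPM.

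Id1, which encodes an inhibitor of helix-loop-helix factors and is a direct Smad target, stood at 15.2 and 0 CPM untreated. It stood at 369, 293 and 105 at 24 h (the last on Tac1 24h) and at 835, 471, 592 and 476 at 4 days (5.60 ± 0.66 against untreated, adjusted p = 3.9e-07). Its relative Id2 stood at 30.4 and 20.8 untreated, 578, 616 and 114 at 24 h and 1458, 518, 1231 and 1225 at 4 days (5.29 ± 0.65, adjusted p = 4.2e-06). Id3 stood at 32.9 and 10.4 untreated, 425, 264 and 0 at 24 h (the last on Tac1 24h) and 426 to 1106 at 4 days. It did not pass at 4 days against untreated (4.69 ± 1.26, adjusted p = 0.069). Smad6, an inhibitory Smad, gave 1 transcript over the untreated sums and 30 over the 4 day sums, 45.1 times the level (exact 95% interval 7.49 to 1838). Its call (adjusted p = 0.037) ended without Tac1-Cre 2 (0.55) or Tac1 d4 1 (0.09). These 4 are the tested BMP targets of 15 listed, and 3 of them passed, with a median of 5.19 beside 0.03 over all genes.

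At 24 h, 3 of 3008 genes passed (0.0997%), all higher: Id1 (4.38 ± 0.67, adjusted p = 5.7e-04), Id2 (3.87 ± 0.65, adjusted p = 0.0056) and Cdkn1c (2.27 ± 0.47, adjusted p = 0.024), a cyclin-dependent kinase inhibitor gene. No gene was lower; 55 had an unadjusted p under 0.05 and DESeq2 also called 3. The falls with the smallest p that did not pass were Mir5109 (−1.23 ± 0.35), Sars (−1.25 ± 0.46) and Asns (−1.43 ± 0.53). With plate as a block 7 passed. Without Tac1-Cre 1 edgeR called 0 (97 with an unadjusted p under 0.05), and without Tac1-Cre 2 Cdkn1c did not pass (adjusted p = 1.00). After thinning to 2000 transcripts Id1 did not pass either (2.92, adjusted p = 0.37).

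The 24 h sums did not behave alike. On Tac1 24h Id1, Id2 and Id3 stood at 105, 114 and 0 CPM against 293 to 369, 578 to 616 and 264 to 425 on the 2 shared plates. Sct stood at 286 CPM on Tac1 24h, beside 291 and 385 untreated and 2933 and 2140 at 24 h on the shared plates. Members on Tac1 24h also had fewer detected genes than those of Tac1-Cre 1 at 24 h, with medians of 1099 and 2418, and fewer transcripts, 3288 and 5939. Without Tac1 24h, 7 genes passed at 24 h. The part of depth or plate in this difference was not tested.

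Sct encodes secretin, a hormone classically assigned to S cells. At 4 days it stood at 4414, 5101, 4121 and 6641 CPM in members, above every untreated and 24 h sum (3.92 ± 0.78 against untreated, adjusted p = 0.011), and it passed with any 1 plate left out. Among hormone genes with 4 tested, Sct alone passed. The call ended when sums needed at least 10 wells (adjusted p = 0.13). The share of members with at least 2 Sct transcripts of 2000 was 10.9% and 15.4% untreated, 33.3%, 57.1% and 13.3% at 24 h and 90.5%, 87.5%, 83.3% and 92.9% at 4 days. Over plates the mean rose from 13.1% ± 3.2 (SD, n = 2) to 88.5% ± 4.1 (SD, n = 4), with no overlap. The exact two-sided permutation p was 0.067, the smallest that 15 arrangements can give. Unthinned shares, pooled over plates, were 45.6%, 50% and 97.1%. By the 1% limit 5 of 69 4 day members were led by Sct, and its median was 7 transcripts of 2000. In wells under 500 transcripts Sct stood at 5186 CPM on Tac1 d4 1 and 3303 on Tac1 d4 2, above and below the members of those plates.

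**Figure D4:**
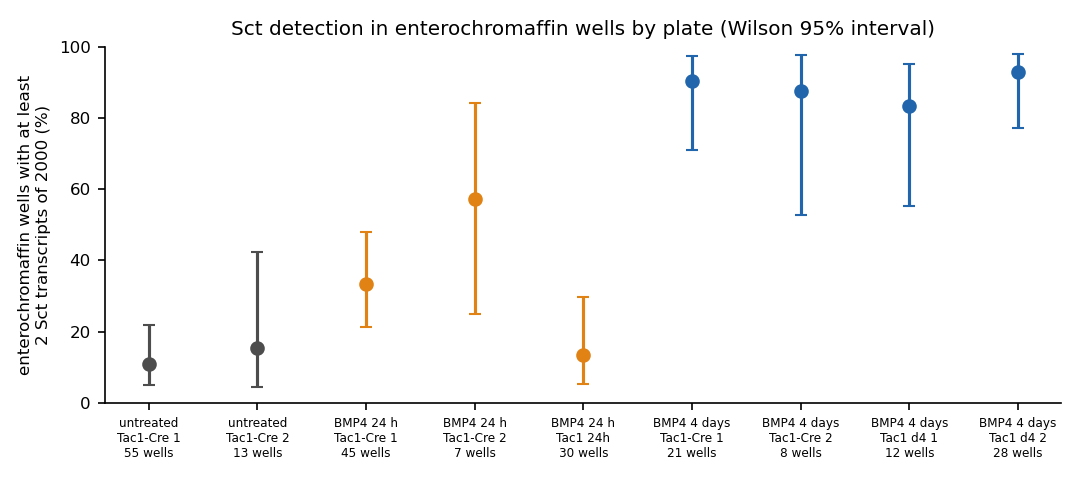
Share of enterochromaffin wells with at least 2 Sct transcripts after thinning to 2000, for each plate and exposure, with Wilson 95% intervals for counting error. The 4 sums at 4 days lie between 83.3% and 92.9% and the 2 untreated sums at 10.9% and 15.4%.

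Endocrine transcription factors moved in both directions at 4 days. Of 15 tested, 4 were higher (Sox4, Pax4, Neurod1 and Foxa1) and 2 lower (Nkx2-2 and Rfx6). Sox4, a factor of early endocrine progenitors, stood at 114 and 72.8 CPM untreated and 785 to 1326 at 4 days (3.33 ± 0.43, adjusted p = 1.5e-06). Nkx2-2, which is needed for serotonin cell formation, fell from 684 and 916 CPM to 139, 204, 213 and 60.7 (−2.45 ± 0.40, adjusted p = 6e-05). Pax4 rose from 30.4 and 10.4 CPM to 131, 204, 94.7 and 425 (3.16 ± 0.73, adjusted p = 0.004), a call that ended without Tac1-Cre 1 (0.086), Tac1-Cre 2 (0.18) or Tac1 d4 2 (0.12). Sox4 and Nkx2-2 passed with any 1 plate left out.

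Within the granule list of 20 tested genes, 2 rose and 3 fell, with a median of −0.20. Pcsk1n, which encodes the prohormone convertase inhibitor proSAAS, rose from 124 and 62.4 CPM to 832 to 1397 (3.44 ± 0.46, adjusted p = 2.7e-06), and Syt7, a calcium sensor of exocytosis, from 38 and 0 to 848 to 1350 (5.19 ± 0.69, adjusted p = 2.2e-05). Rab3c fell from 1018 and 791 to 81 to 345 (−1.93 ± 0.38, adjusted p = 8.2e-04). The somatostatin receptor gene Sstr1, 1 of 2 tested receptors, rose from 30.4 and 10.4 to 282 to 931 (4.36 ± 0.61, adjusted p = 4.7e-06). The 4 day ranges lie apart from the untreated values in each.

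Genes of the villus tip, the mature end of the epithelium, were higher for 3 of 6 tested. Tbx3, a T-box repressor gene, rose by 5.30 ± 0.77, Nt5e, which encodes the ectonucleotidase CD73, by 3.48 ± 0.61 and Klf4 by 2.99 ± 0.72, the last losing its call without Tac1-Cre 2 (adjusted p = 0.06). Among 6 tested enterocyte genes 3 rose. Sis, the sucrase-isomaltase gene, rose from 53.2 and 41.6 CPM to 631, 1067, 782 and 2045 (4.51 ± 0.53, adjusted p = 3.9e-07). Apoa1, an apolipoprotein gene, gave 2 transcripts over the untreated sums and 153 over the 4 day sums (115 times the level, exact 95% interval 31.3 to 957). Krt20 rose by 2.22 ± 0.54 and lost its call without Tac1-Cre 2 (1.20, adjusted p = 0.74). Against untreated members, no tested goblet, proliferation, stem or interferon gene passed at 4 days (2, 1, 1 and 3 tested), and of 5 tested genes of the unfolded protein response Herpud1 fell (−2.23 ± 0.54), without a call when Tac1-Cre 1 or 2 was left out (adjusted p = 0.20 and 0.087).

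Outside these lists, the large rises included 3 serpin genes, Slc15a1, Cntnap2, Auts2 and Cwh43. Serpina1c had no transcript untreated or at 24 h and stood at 147, 125.6, 213 and 344 CPM at 4 days, at least 34.5-fold higher than the floor of 3 transcripts over the untreated sums. Serpina1e stood at 0 and 10.4 untreated and at 229 to 607, and Serpina1a at 2.5 and 0 untreated and at 91.1 to 497. The serpin copies are near-identical and reads may be split among them. Cwh43, a glycolipid anchor remodelling gene, rose from 10.1 and 0 CPM to 270 to 557 (5.71 ± 0.76, adjusted p = 2.5e-06). The peptide transporter gene Slc15a1 and the neuronal genes Cntnap2 and Auts2 were at 0 in untreated members and at least 28.5, 27.04 and 24.5-fold higher than that floor at 4 days. Their calls ended without Tac1-Cre 1 (adjusted p = 0.10, 0.093 and 0.26).

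Vim and Il17re showed the clearest falls. Vim, the vimentin gene, stood at 1585 and 853 CPM untreated, 1006, 1378 and 943 at 24 h and 73.7, 110, 0 and 50.6 at 4 days (−4.25 ± 0.44, adjusted p = 6.8e-08). After thinning it was found in 57 of 68 untreated and 4 of 69 4 day members (83.8% and 5.8%, and 94.1% and 14.5% before). Il17re, a subunit gene of the interleukin 17C receptor, went from 934 and 1009 CPM to 0 to 110 (−4.46 ± 0.50, adjusted p = 3.9e-07). Car2, the carbonic anhydrase 2 gene, gave 92 transcripts untreated and 1 at 4 days, a 4 day level of 0.016 of the untreated (exact 95% interval 0 to 0.093). Enho, which encodes the peptide adropin, gave 111 and 3 (0.041, 0.008 to 0.122). These 4 genes passed with any 1 plate left out.

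**Figure D5:**
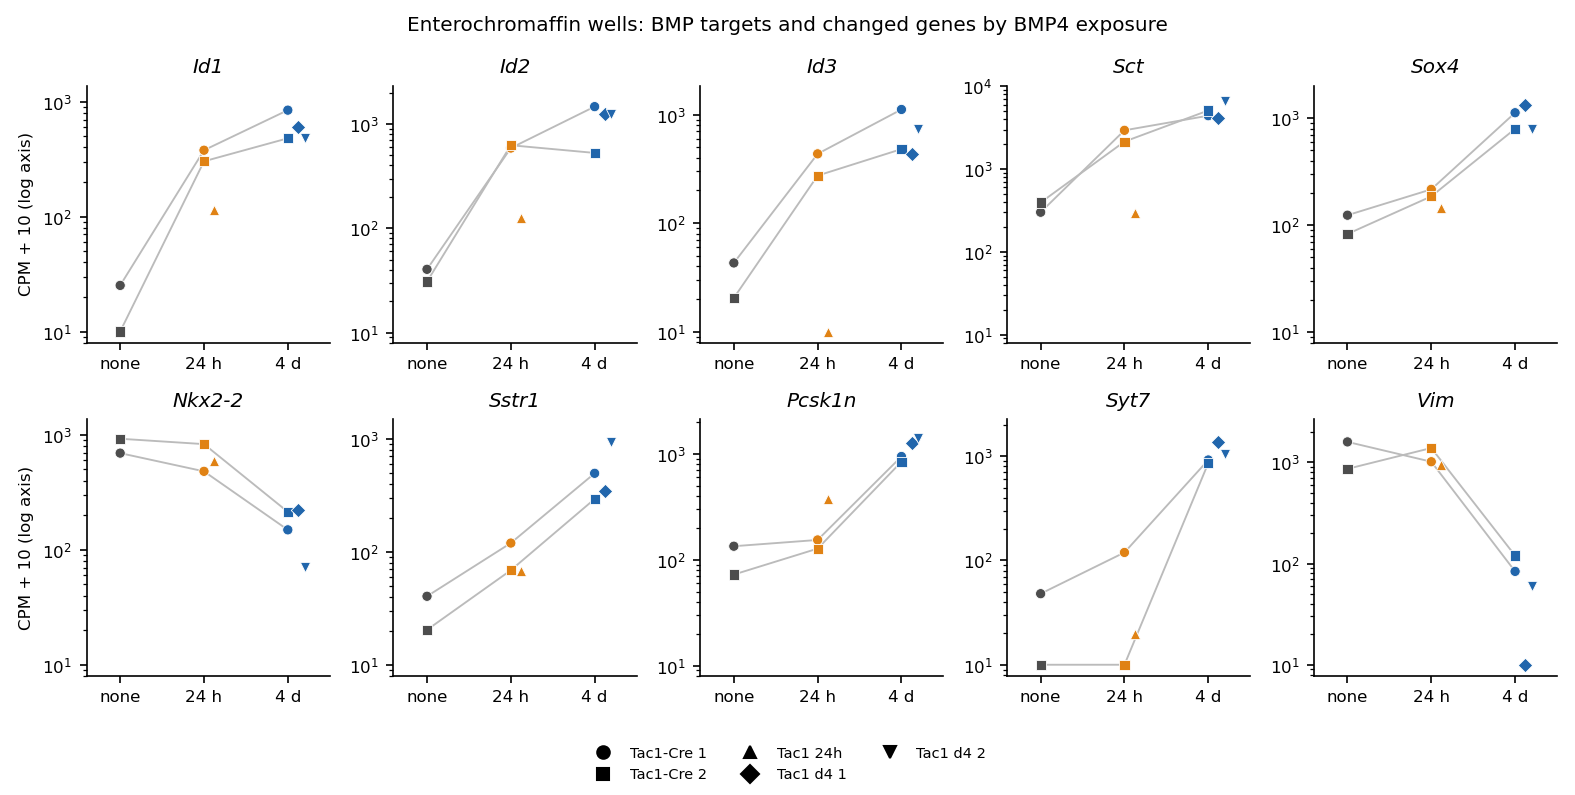
Levels in enterochromaffin wells as CPM + 10 on log axes against BMP4 exposure, 1 point per plate and condition sum; lines join sums of one plate and marker shapes give the plate. Id1, Id2, Id3 and Sct are already higher at 24 h on the shared plates and not, or less so, on Tac1 24h, whereas Sox4, Pcsk1n, Syt7, Nkx2-2 and Vim stand apart at 4 days.

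Comparing 4 days with 24 h separates later from earlier differences. Here 168 of 3008 genes passed (5.59%), 84 higher and 84 lower, and 107 with plate as a block. Sox4 (2.52 ± 0.36), Pcsk1n (2.38 ± 0.38), Syt7 (4.03 ± 0.55) and Sstr1 (2.64 ± 0.47) were higher, and Nkx2-2 (−2.01 ± 0.38), Vim (−4.05 ± 0.42) and Il17re (−4.04 ± 0.49) lower, with and without the block and with any 1 plate left out. Hspb1, a small heat shock protein gene (5.69 ± 0.83), and Gsdma, a gasdermin gene (4.90 ± 0.63), were also higher. The goblet cell gene Fcgbp rose, from 21.9 to 29.3 CPM at 24 h to 162 to 282 (3.03 ± 0.64, adjusted p = 0.002), a call that ended without Tac1-Cre 1 (0.11) or Tac1-Cre 2 (0.056). Sox9, a stem cell list gene, fell, from 206 to 381 CPM to 23.7 to 73.7 (−2.27 ± 0.53, adjusted p = 0.0058), a call that ended with the block (0.094) and without Tac1-Cre 2 (0.057). Sct differed by 1.54 ± 0.58 and did not pass (adjusted p = 0.19). Chgb (−1.08 ± 0.27, adjusted p = 0.0098) lost its call with the block (0.17) and without Tac1-Cre 1 (0.07). The 24 h and untreated comparisons share the 4 day sums, so their values are given side by side and not as a replication.

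Other wells were set beside members to ask whether the 4 day response was particular to enterochromaffin cells. In other wells of Tac1-Cre 1, Id1 went from 15.4 to 397 CPM, Id2 from 61.6 to 430 and Sct from 462 to 3046 between no BMP4 and 4 days. Members of that plate went from 15.2 to 835, from 30.4 to 1458 and from 291 to 4414. The test of the difference between the 2 responses called 0 of 1082 genes (0.0%) with edgeR, and 44 had an unadjusted p under 0.05. The differences with the smallest p were 3.41 ± 0.71 for Sis (adjusted p = 0.14), 3.92 ± 0.95 for the desaturase gene Scd2 and 3.92 ± 1.00 for Syt7 (adjusted p = 0.197 each). In the other direction they were −8.46 ± 1.97 for Lmx1a, −3.64 ± 0.90 for the keratin gene Krt19 and −3.81 ± 1.00 for Atf6. Lmx1a stood at 0 CPM in the untreated sum of other wells. Untreated other wells come from 1 plate, with 11 wells, which limits this test. The make-up of other wells also changed with exposure. Over all plates, 3 of 12 untreated and 23 of 35 4 day other wells had no leading hormone. The test therefore cannot decide whether the response was particular to enterochromaffin cells. Leaving out Tac1 24h called 2 genes and leaving out Tac1 d4 2 called 5.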

How the data were processed

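The libraries were made by SORT-seq, which adds a molecular identifier to each transcript and spike-ins to each well, per the labels' protocols. The submitters' processing notes name BWA 0.6.2-r126 and the mm10 build. How reads were assigned to genes, and whether strand was used, is not given in the sources used here. In each table the authors deposited expected counts per gene and well, with a correction for repeated use of one identifier. Undoing it gave whole numbers within 0.02 for 99.92% of nonzero values with 4096 identifiers of 6 bases and for 87.77% with the 256 identifiers of the 4 bases the labels state.

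Wells were summed per plate and condition (at least 5 wells a sum) and the sums rounded. Genes were filtered with filterByExpr, scaled by TMM and tested with edgeR 4.0.16 (quasi-likelihood, Benjamini-Hochberg adjustment, threshold 0.05, R 4.3.3), which was tested on simulated data. The simulated sums were drawn independently and without a plate effect, so that test does not cover sums that share a plate. Plate and condition were blocks for members against other wells. All 9 sums of members shared one fit for BMP4. No doublet caller was run, since each well took one sorted cell. CPM are relative to all genes of a sum, so fewer cells of a kind and less RNA per cell cannot be told apart. Members, gene lists and tests were chosen with earlier results of these data known.

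Named genes were the 8 largest differences each way that passed, among genes averaging 5 or more in log2 CPM with one direction in every pair or no overlap between conditions (predicted, Rik and ribosomal protein genes left out), the tested genes of the marker, serotonin, peptide, hormone, BMP target and sensory lists, and up to 3 of each other list by smallest p. Sums of one plate share that plate by the labels, and their residuals correlated at 0.048 to 0.127. DESeq2 1.42.0, other filters, thresholds and blocks, and each plate left out were the alternatives. Thinning drew 2000 transcripts per well. The Gcg and Gip plates were not used here, and 1 named gene is not reported here.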

Additional observations from a re-analysis of the deposited data

Results flagged for a closer look

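Among 42 named genes that passed at 4 days, the 4 sums of members at 4 days were examined for a single value far from the other 3, which chance alone flags in about 1 of 20 groups. There were 5 such genes. Of these, 3 have 1 sum above 0 and the other 3 at 0. They are Abcb9, a peptide transporter gene, at 57.3 CPM on Tac1-Cre 1, and Car2 and Ces2a at 8.2 CPM on the same plate. For Car2 and Ces2a that value is 1 transcript each. The flag is automatic when the other 3 sums are at 0, so the rate above does not cover these genes. Krt20 stood at 722.0 CPM on Tac1-Cre 2 against 273 to 332 in the other sums. Serpina1a stood at 497 CPM on Tac1 d4 1 against 91.1 to 106 in the others. What sets these sums apart was not tested.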

How the results depend on the processing

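Counts of genes that passed moved with the choices. For members against other wells (31), DESeq2 called 51, a sum of Tac1 and Tph1 of at least 10 called 4, a minimum of 3000 transcripts 17, no filter on low counts 92, no limit on Kcnq1ot1 85, wells thinned to 2000 transcripts 4, plate sums with plate as the replicate block 19 and leaving out each plate 12 to 43. For 4 days against untreated (218) the counts were 97 at a sum of at least 10, 129 after thinning and 91 to 253 without each plate; the replicate block gave 196. For 24 h (3) they were 1 at a sum of at least 3, 1 after thinning, 7 with the replicate block, 8 on the 2 plates with all conditions (chosen after seeing the data) and 0 to 7 without each plate. For 4 days against 24 h (168) they were 61 at a sum of at least 10, 110 after thinning, 107 with the replicate block and 84 to 164 without each plate. The difference in response (0) gave 0 to 5 without each plate that could be left out; without Tac1-Cre 1 no untreated pair remained. Members with Sst and Gip each under 1% (chosen after seeing the data) gave 31, 198, 2 and 165. All alternatives kept the sign of the named calls except Ces2a at 4 days, at 0.08 after thinning; thinning leaves fewer transcripts, and the cause was not tested. Of the named genes that passed, 4 of 21, 20 of 42, 0 of 3 and 15 of 39 passed under every alternative that tested them. The shares of wells kept their direction throughout.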

Other observations

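Some values bear on RNA quality and on wells left out. Neat1, a nuclear RNA, was higher in members than in other wells (1.07 ± 0.24, adjusted p = 0.011; 0.49 without Tac1-Cre 1) and lower in members at 4 days than untreated (−1.55 ± 0.35, adjusted p = 0.0034; 0.16 without Tac1-Cre 2). Kcnq1ot1, whose level was limited by the choice of wells, stood at 4217 and 5276 CPM in untreated members and at 7337 to 12504 at 4 days. Of the 39 wells set aside for Kcnq1ot1, 4 held Tac1 and Tph1 at a sum of at least 5. Among 1593 wells under 2000 transcripts, 87 reached that sum, 5 untreated, 28 at 24 h and 54 at 4 days, with a median depth of 1334 transcripts.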
